A study of Mus musculus with 12 samples.

Results

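The 9 mouse genes described here encode transcription factors of the STAT family (*Stat2*, *Stat3*, *Stat5a*, *Stat5b* and *Stat6*) and the Janus kinases (*Jak1*, *Jak2*, *Jak3* and *Tyk2*). They were chosen by gene symbol, out of 35450 genes with a transcript in the deposited tables, and 9 of the 9 were among the 12550 genes that passed the filter on low counts. The cells were 4T1, a mammary carcinoma line derived from a BALB/c mouse, profiled by RNA-Seq of total RNA in 3 groups of 4 libraries. In the first group, 4T1 cells had been grown for 48 hours across a Transwell membrane (0.4 µm pores) from Gr1+ cells taken out of 4T1 tumors (Tu-Gr1+CD11b+–primed, here Tu-primed). In the second group the Gr1+ cells were splenic and came from BALB/c mice carrying 4T1 tumors (Spl-Gr1+CD11b+–primed, here Spl-primed), with both kinds of Gr1+ cell isolated at day 21 after tumor injection according to the labels. The third group was parental 4T1, and the labels name no coculture for it, so that the presence of any Gr1+ cells and their source differ together from this control. The membrane keeps the partners apart, and the 4T1 cells were lysed in the well. Nothing states whether the 4 replicates were separate cultures or came from separate mice, so p-values measure the spread between these libraries only.

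As background, a cytokine receptor of this class has no kinase of its own and carries Janus kinases on its inner tails. Ligand binding lets the kinases phosphorylate each other, the receptor and a STAT protein, which pairs through its SH2 domain, enters the nucleus and switches genes on. STAT3 follows receptors of the IL-6 family, which share the gp130 or OSMR chains and use JAK1, JAK2 and TYK2. STAT2 works in type I interferon signaling, where JAK1 and TYK2 act at the receptor and STAT2 joins IRF9 in the ISGF3 complex, which binds a DNA element called ISRE. STAT5A and STAT5B follow prolactin, growth hormone and several interleukins and are needed for milk gene expression in the mammary gland, STAT6 follows IL-4 and IL-13, and JAK3 binds the common gamma chain of interleukin receptors found mostly on blood cells. Several STATs bind a second element, GAS. The activity of these proteins rests on phosphorylation, which mRNA counts do not measure.

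In the mouse genome (GRCm38), the STAT genes lie on chromosomes 10 and 11. *Stat2* (ENSMUSG00000040033) spans chr10:128270559-128292849 and *Stat6* (ENSMUSG00000002147) chr10:127642986-127660957, both on the plus strand. *Stat5b* (ENSMUSG00000020919, chr11:100780731-100850724, minus strand), *Stat5a* (ENSMUSG00000004043, chr11:100859351-100885169, plus strand) and *Stat3* (ENSMUSG00000004040, chr11:100885098-100939540, minus strand) follow each other, and the 3′ ends of *Stat5a* and *Stat3* overlap on opposite strands. The kinase genes are on separate chromosomes, *Jak1* (ENSMUSG00000028530) at chr4:101152367-101265282, *Jak2* (ENSMUSG00000024789) at chr19:29251828-29313080, *Jak3* (ENSMUSG00000031805) at chr8:71676296-71690575 and *Tyk2* (ENSMUSG00000032175) at chr9:21104068-21131243. *Stat5a* and *Stat5b* are near-identical copies over long stretches. Their reads were divided between them by an estimate, so the separate values of these genes are less certain than their sum.

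The promoter windows of the 9 genes in RefSeq (250 bases before to 50 after each start, GRCm38.p6) were searched for STAT elements on both strands. The GAS motif TTCNNNGAA, a palindrome, was found in no window of the 9 genes, while 9.55% of all genes in the table hold it. The same letters with 4 free bases between TTC and GAA occur at 8.01% of genes, and an ISRE core, taken as GAAA, any 2 bases and GAAA, at 3.99%. Among the 9 genes, *Stat2* alone held a match in these windows, with both the 4-base GAS form and, on the minus strand, the ISRE core lying side by side. They are printed because *Stat2* showed the largest difference of the 9 genes. The stretch below lies upstream of the RefSeq start of *Stat2*, which is at base 128270498, with the ISRE core (first) and the spaced GAS form (second) in capitals.
Stat2 promoter, chr10:128270251-128270310, plus strand: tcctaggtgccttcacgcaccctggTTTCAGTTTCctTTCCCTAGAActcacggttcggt
The ISRE core begins 222 bases and the spaced GAS form 210 bases before the RefSeq start. That start lies upstream of the span of *Stat2* given above. The coding transcripts Stat2-201 and Stat2-202 begin at base 128270576, farther from both matches. A match of letters is a description and not evidence of binding, and no match in the other windows covers these letters and these windows only.

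Libraries held 24566183 to 31637755 estimated reads. Of 23 marker genes of granulocytes and other myeloid cells, 4 passed the filter on low counts (*S100a8*, *Cxcr2*, *Itgb2* and *Lcp1*) and 7 had no read in any library. The defining markers *Ptprc*, *Itgam*, *Csf3r* and *Ly6g* had at most 24 reads over the 4 libraries of a group. The summed level of the list, in CPM (reads of a gene relative to the scaled total of its library), was 247 to 273 in Tu-primed, 262 to 270 in Spl-primed and 201 to 231 in parental libraries, nearly all of it from *Itgb2* and *Lcp1*. The epithelial markers *Epcam*, *Krt8* and *Krt18* were abundant in all groups and *Krt5* had no read, and the 10 epithelial markers summed to 1916 to 2351 CPM in Tu-primed, 2406 to 2595 in Spl-primed and 2675 to 3989 in parental libraries. The part of these marker levels in the results below was not tested. Levels below are CPM after TMM scaling. The scaling factors were 0.88 to 0.95 in parental and 1.01 to 1.05 in primed libraries. With library size alone the median gene moved up by 0.21 (log2) in Tu-primed and 0.19 in Spl-primed cells against parental cells, so small changes against parental cells depend on this scaling. In bulk RNA, a change in the share of cells that express a gene and a change in RNA per cell cannot be told apart. Spl-primed replicate 3 and Tu-primed replicate 4 often stood apart from their groups and are named where they did.

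*Stat2*, *Stat3* and *Jak3* were higher in Tu-primed than in Spl-primed cells, by 3.82-, 2.17- and 1.98-fold, and none of the other 6 genes passed the test in this comparison. At an unadjusted p under 0.05, 4 of the 9 would be higher and 1 lower. Against parental cells, Tu-primed cells had higher *Stat2*, *Jak3*, *Stat3*, *Stat5a*, *Tyk2*, *Jak2* and *Stat5b* and lower *Jak1*. Spl-primed cells had higher *Tyk2*, *Stat2*, *Jak3*, *Stat5a* and *Stat3* and lower *Jak1*. The counts were thus 3 higher and 0 lower of 9 for Tu-primed against Spl-primed cells, where 4.66% of all genes tested were called higher and 2.96% lower (edgeR). DESeq2 also called *Jak2* higher there (adjusted p = 0.0165) and 1 of the 9 lower, and limma-voom called 0 lower. They were 7 higher and 1 lower for Tu-primed against parental cells, where 31.2% of all genes were called higher and 28.0% lower. They were 5 higher and 1 lower for Spl-primed against parental cells, where 25.7% were called higher and 22.5% lower. A gene was called when the adjusted p of edgeR's quasi-likelihood test, over all 12550 genes, was under 0.05. Both comparisons with parental cells share the 4 parental libraries. The median log2 fold change of the 9 genes was 0.03, 0.42 and 0.31 in these comparisons, beside -0.01, 0.02 and 0.02 for all genes tested.

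**Figure D1:**
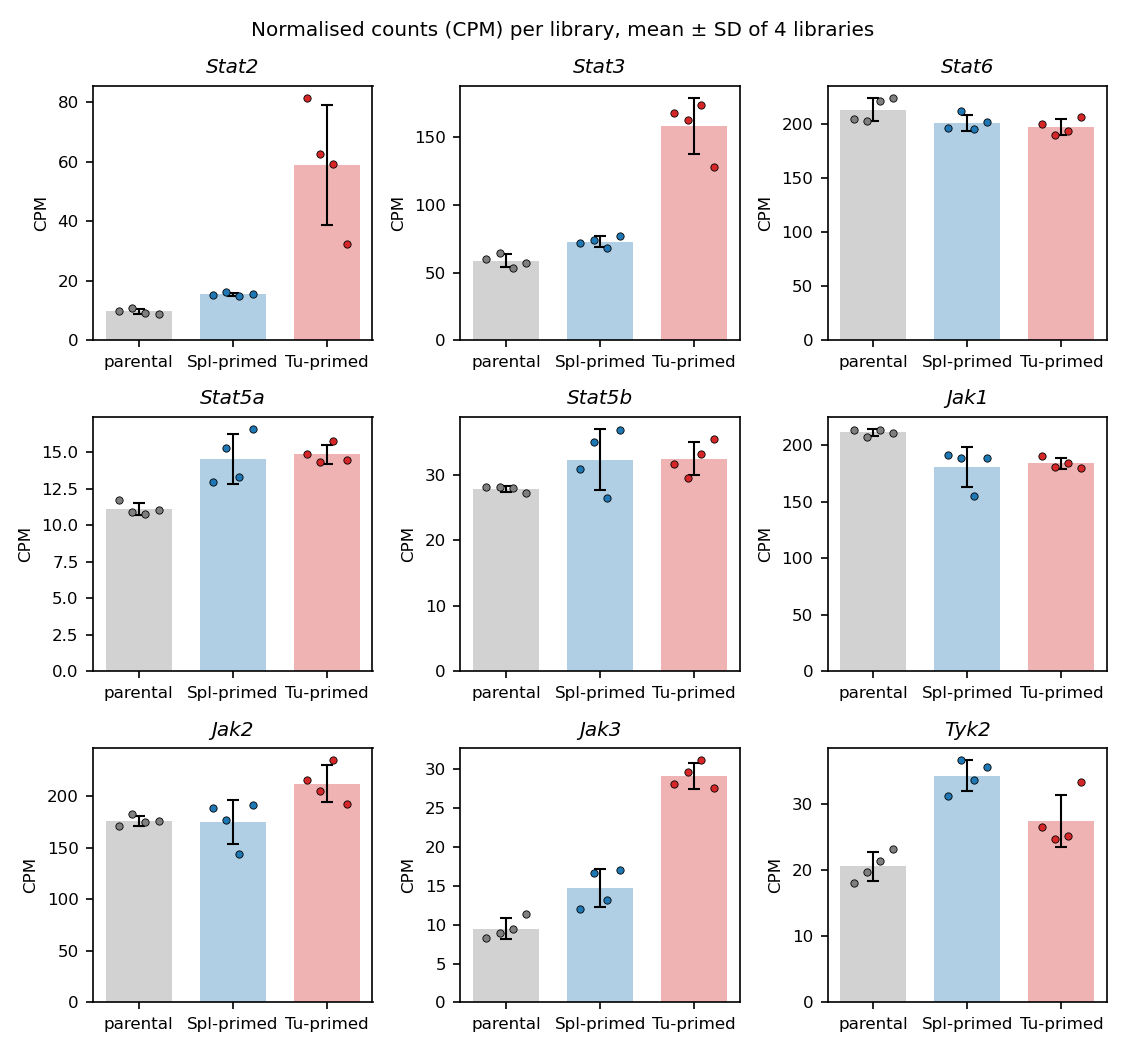
Normalised counts (CPM, linear axis from 0) of the 9 genes in each library by group, with points for single libraries and bars and error bars for mean ± SD (n = 4). Tu-primed libraries of Stat2, Stat3 and Jak3 lie above every Spl-primed and parental library, while Stat6 libraries of all groups lie between 189 and 223 CPM.

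*Stat2*, the partner of IRF9 in ISGF3, had 81.3, 62.6, 59.2 and 32.5 CPM in Tu-primed replicates 1 to 4. It had 15.2, 16.1, 14.8 and 15.5 CPM in the Spl-primed libraries and 9.98, 10.8, 9.27 and 8.83 CPM in the parental libraries. The 3 groups did not overlap, and the lowest Tu-primed library, replicate 4, was still above the highest Spl-primed one. The log2 fold change was 1.93 ± 0.20 (SE) between Tu-primed and Spl-primed cells (adjusted p = 3.9e-05) and 2.60 ± 0.21 between Tu-primed and parental cells (adjusted p = 4.33e-07). Without Tu-primed replicate 4 these differences were 2.13 and 2.80. Between Spl-primed and parental cells it was 0.67 ± 0.21 (adjusted p = 0.0179), a call that limma-voom did not make (adjusted p = 0.0571).

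*Irf9*, the DNA-binding partner of STAT2, was highest in the same Tu-primed library as *Stat2* and lowest in replicate 4, with 62.2, 53.1, 42.2 and 27.8 CPM. Spl-primed libraries had 6.39 to 8.32 CPM and parental libraries 3.64 to 4.53 CPM of *Irf9*. Its log2 fold change was 2.70 ± 0.20 between Tu-primed and Spl-primed cells (adjusted p = 4.69e-06) and 3.5 ± 0.21 between Tu-primed and parental cells (adjusted p = 7e-08). Against parental cells it was also higher in Spl-primed cells, by 0.80 ± 0.23 (adjusted p = 0.0108), which was lost in limma-voom (adjusted p = 0.0667) and with transcript length offsets (adjusted p = 0.0632).

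*Stat3*, which carries signals of the IL-6 family, had 168, 163, 174 and 128 CPM in the Tu-primed libraries. Spl-primed libraries had 72.2, 74.4, 68.1 and 77.3 CPM and parental libraries 60.1, 64.9, 53.3 and 57.0 CPM. Again the groups were separate and Tu-primed replicate 4 was the lowest of its group. The log2 fold change was 1.12 ± 0.09 between Tu-primed and Spl-primed cells (adjusted p = 9.7e-06) and 1.43 ± 0.09 between Tu-primed and parental cells (adjusted p = 9.43e-08). Spl-primed cells exceeded parental cells by 0.31 ± 0.09 (adjusted p = 0.011), and this call was lost with transcript length offsets (adjusted p = 0.138).

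*Stat5a* and *Stat5b* did not separate the primed groups. *Stat5a* had 14.3 to 15.8 CPM in Tu-primed, 12.9 to 16.6 in Spl-primed and 10.7 to 11.7 in parental libraries, and both primed groups lay above the parental one. Relative to parental cells the log2 fold change was 0.42 ± 0.08 in Tu-primed (adjusted p = 0.000605) and 0.38 ± 0.08 in Spl-primed cells (adjusted p = 0.00172). *Stat5b* had 29.5 to 35.4, 26.4 to 36.9 and 27.2 to 28.1 CPM. Its difference between Tu-primed and parental cells, 0.22 ± 0.09 (adjusted p = 0.0489), sat at the threshold and was lost under 14 alternatives. Among these were leaving out any of Tu-primed replicates 1, 3 and 4 or any 1 parental library. The difference between Spl-primed and parental cells was 0.21 ± 0.09 (adjusted p = 0.0656), and without Spl-primed replicate 3, the lowest library of its group, it was 0.28 (adjusted p = 0.00565). Summed over both copies, the level was 47.3 ± 2.7 CPM (SD, n = 4) in Tu-primed, 46.8 ± 6.2 in Spl-primed and 39.0 ± 0.68 in parental libraries.

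*Stat6*, the STAT of IL-4 and IL-13 signaling, was abundant and passed the test in no comparison. Its level was 197 ± 7.4 CPM (SD, n = 4) in Tu-primed, 201 ± 7.6 in Spl-primed and 213 ± 10.8 in parental libraries, and the ranges overlapped. The log2 fold change against parental cells was -0.11 ± 0.05 in Tu-primed (adjusted p = 0.0801) and -0.08 ± 0.05 in Spl-primed cells (adjusted p = 0.203), and both turned positive with library size alone (0.08 and 0.09). The former passed in DESeq2 (-0.13, adjusted p = 0.0375) and without parental replicate 2 (-0.14, adjusted p = 0.0467).

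Among the kinases, *Jak3* had the largest log2 fold change in both comparisons of Tu-primed cells, while *Tyk2* had the largest between Spl-primed and parental cells. *Jak3* had 28.1, 29.6, 31.2 and 27.6 CPM in Tu-primed libraries, 11.99, 16.6, 13.2 and 17.0 CPM in Spl-primed libraries and 8.29, 8.90, 9.44 and 11.4 CPM in parental libraries. The groups did not overlap, and the Tu-primed libraries were close to each other, replicate 4 included. The log2 fold change was 0.99 ± 0.11 between Tu-primed and Spl-primed (adjusted p = 8.79e-05), 1.62 ± 0.12 between Tu-primed and parental (adjusted p = 2.25e-07) and 0.63 ± 0.12 between Spl-primed and parental cells (adjusted p = 0.000754). Its receptor chain partner *Il2rg*, the common gamma chain (named after its values were seen), had a mean of 0.304 CPM in Tu-primed, 0.341 in Spl-primed and 0.351 in parental cells. The *Jak3* locus overlaps *Insl3*, a hormone gene on the same strand. On opposite strands, *Stat6* overlaps *Nab2*, *Jak1* overlaps *Raver2* and *Tyk2* overlaps an antisense gene, *1700084C06Rik*, and the strand setting used in counting is not given.

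*Tyk2*, a kinase of interferon and IL-6 family receptors, had a different order of groups. It had 26.5, 24.8, 25.3 and 33.3 CPM in Tu-primed libraries, 31.3, 36.7, 33.7 and 35.6 CPM in Spl-primed libraries and 18.1, 19.7, 21.3 and 23.2 CPM in parental libraries. Tu-primed replicate 4 lay within the Spl-primed range and the other Tu-primed libraries lay below it. Against parental cells, *Tyk2* was higher by 0.42 ± 0.10 in Tu-primed (adjusted p = 0.0026) and by 0.74 ± 0.10 in Spl-primed cells (adjusted p = 6.25e-05). The direct difference, -0.32 ± 0.10 for Tu-primed against Spl-primed cells, did not pass (adjusted p = 0.0626). It passed without Tu-primed replicate 4 (-0.43, adjusted p = 0.0058), in DESeq2 (-0.31, adjusted p = 0.0428) and with the replicate block (-0.33, adjusted p = 0.0318).

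*Jak2* had 216, 205, 235 and 193 CPM in Tu-primed libraries, 188, 177, 144 and 191 CPM in Spl-primed libraries and 172 to 182 CPM in parental libraries. Tu-primed libraries lay above both other groups, with Spl-primed replicate 3 the lowest of all. The log2 fold change was 0.27 ± 0.08 between Tu-primed and parental cells (adjusted p = 0.0129), lost without Tu-primed replicate 3 (adjusted p = 0.0512). Between Tu-primed and Spl-primed cells it was 0.28 ± 0.08 and did not pass (adjusted p = 0.0585). It passed under 6 alternatives, among them without Tu-primed replicate 4 (adjusted p = 0.0366), without Spl-primed replicate 4 (adjusted p = 0.046) and in DESeq2 (adjusted p = 0.0165).

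*Jak1*, which serves most of these receptors, was the one gene called lower. It had 180 to 191 CPM in Tu-primed, 155 to 191 in Spl-primed and 207 to 214 in parental libraries, with Spl-primed replicate 3 far below the other 3 Spl-primed libraries (189 to 191). Relative to parental cells the log2 fold change was -0.20 ± 0.06 in Tu-primed (adjusted p = 0.0141) and -0.22 ± 0.06 in Spl-primed cells (adjusted p = 0.00979), and -0.17 in the latter without replicate 3 (adjusted p = 0.00337). Both calls were lost with library size alone (-0.01 and -0.05). They were also lost with transcript length offsets, where the differences were about as large (-0.20 and -0.27, adjusted p = 0.198 and 0.101).

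**Figure D2:**
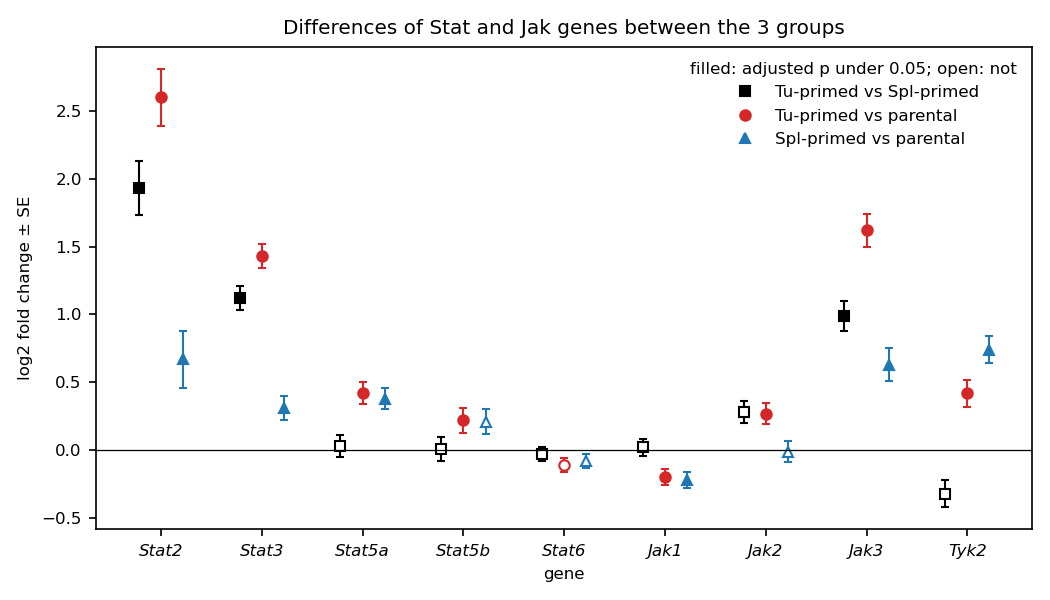
Log2 fold change ± SE (edgeR quasi-likelihood fit over 12 libraries) of each gene in the 3 comparisons, with filled symbols for adjusted p under 0.05 and open symbols for values that did not pass. Stat2, Stat3 and Jak3 have filled symbols above 0 in all 3 comparisons, and Tyk2 has its only negative value, -0.32, between Tu-primed and Spl-primed cells.

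Levels of different genes were compared in TPM, the share of transcripts of a library on a fixed total, which allow for transcript length, within each group only. In parental cells *Stat6* (61.7 ± 4.4 TPM, SD, n = 4) and *Jak1* (59.4 ± 6.1) led and overlapped, followed by *Jak2* (41.9 ± 4.9) and *Stat3* (23.7 ± 6.5), each below the one before. The other 5 genes were much lower, from *Stat5b* (5.86 ± 0.80) to *Stat2* (2.54 ± 0.60), the last of the 9. *Jak3* (2.61 ± 0.13) overlapped both *Stat2* and *Stat5a* (3.30 ± 0.51), and *Tyk2* (4.92 ± 0.23) overlapped *Stat5b*.

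In Spl-primed cells *Stat6* (87.9 ± 5.0 TPM) was above all others, and *Jak1* (65.6 ± 15.7), *Jak2* (54.8 ± 9.3) and *Stat3* (37.4 ± 6.8) overlapped with their neighbors. *Stat2* (6.66 ± 0.79) was the seventh, with *Tyk2* (10.9 ± 1.2) leading the low group and *Jak3* (5.48 ± 1.1) the last. In Tu-primed cells *Stat6* (86.8 ± 3.3), *Stat3* (82.3 ± 10.1), *Jak1* (71.7 ± 1.9) and *Jak2* (69.2 ± 7.1) led, and each overlapped the next. *Stat2* (28.6 ± 11.3) was the fifth and stood apart from its neighbors, its lowest library at 12.9 TPM beside a highest of 12.5 for *Jak3*. *Jak3* (11.2 ± 0.89), *Stat5b* (9.76 ± 0.98) and *Tyk2* (9.26 ± 1.2) overlapped, and *Stat5a* (6.75 ± 0.44) was the last. TPM totals are shared among all transcripts of a library, and on this scale the means of *Stat6* and *Jak1* were higher in primed than in parental cells, opposite to their CPM differences.

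The make-up of each gene's reads over its transcripts was compared next, as a change in splicing could alter the protein without a change in the gene's total. *Stat6*, *Jak3* and *Tyk2* differed in transcript usage between each primed group and parental cells (edgeR diffSpliceDGE), and in these 3 genes the mean share of reads on transcripts annotated as keeping an intron was higher in primed cells. For Tu-primed against parental cells the adjusted p was 0.000261 for *Stat6*, 0.00979 for *Jak3* and 0.00804 for *Tyk2*, and 32.1% of the 8796 genes tested were called. For Spl-primed against parental cells the values were 0.000105, 0.0066 and 0.0165, and 31.0% of genes were called. Of the 8 genes that could be tested, 3 were thus called in either comparison, a share near that of all genes. Between Tu-primed and Spl-primed cells none of the 8 was called (0 at an unadjusted p under 0.05 as well), where 0.364% of all genes were. By limma-voom 0 were called there and 1, *Stat2*, had an unadjusted p under 0.05 (0.0399). *Stat5b* could not be tested, since a single transcript passed the filter.

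On simulated counts diffSpliceDGE called more unchanged genes than its threshold allows, and limma-voom's diffSplice did not. Those counts were drawn independently for each transcript with the same spread for all, unlike the estimated reads of these libraries. How either test behaves on the latter was not tested. By limma-voom, *Stat6* (adjusted p = 0.000216) and *Tyk2* (0.0405) were called for Tu-primed against parental cells, where 29.0% of all genes were, and *Stat6* (0.000127) for Spl-primed against parental cells, where 28.4% were. *Jak3* was not called (0.101 and 0.0925). Without parental replicate 4, diffSpliceDGE called *Stat6* for Spl-primed against parental cells (adjusted p = 0.000276) but neither *Jak3* (0.0588) nor *Tyk2* (0.0602), so the count fell to 1.

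Of the reads of *Jak3*, 19.2% ± 2.3 (SD, n = 4) in Tu-primed, 19.3% ± 4.6 in Spl-primed and 5.45% ± 5.5 in parental libraries were placed on retained-intron transcripts. The parental value was 13.6% in replicate 1 and 1.42 to 4.04% in the others, and the lowest primed library had 14.9%. The corresponding shares of *Tyk2* were 7.28% ± 3.1, 5.98% ± 2.5 and 1.4% ± 1.2, with an overlap of the Spl-primed and parental ranges (2.87 to 8.22% and 0.345 to 3.12%). *Stat6* had 1.99% ± 0.14, 2.36% ± 0.60 and 0.338% ± 0.23, and its parental libraries (0.0312 to 0.601%) lay below every primed library (at least 1.88%). *Stat2*, whose usage did not pass the test, had 5.77% ± 1.4, 4.22% ± 2.0 and 0.807% ± 1.0, and *Stat3* had 2.08% ± 0.52, 1.72% ± 1.6 and 1.32% ± 1.4. *Stat5a*, *Stat5b*, *Jak1* and *Jak2* have no annotated transcript of this kind. Over all genes, retained-intron and nonsense-mediated decay transcripts took 5.64 to 5.83% of reads in Tu-primed, 5.37 to 6.13% in Spl-primed and 3.93 to 4.35% in parental libraries, and the part of this library-wide difference in the values of the 9 genes was not tested.

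**Figure D3:**
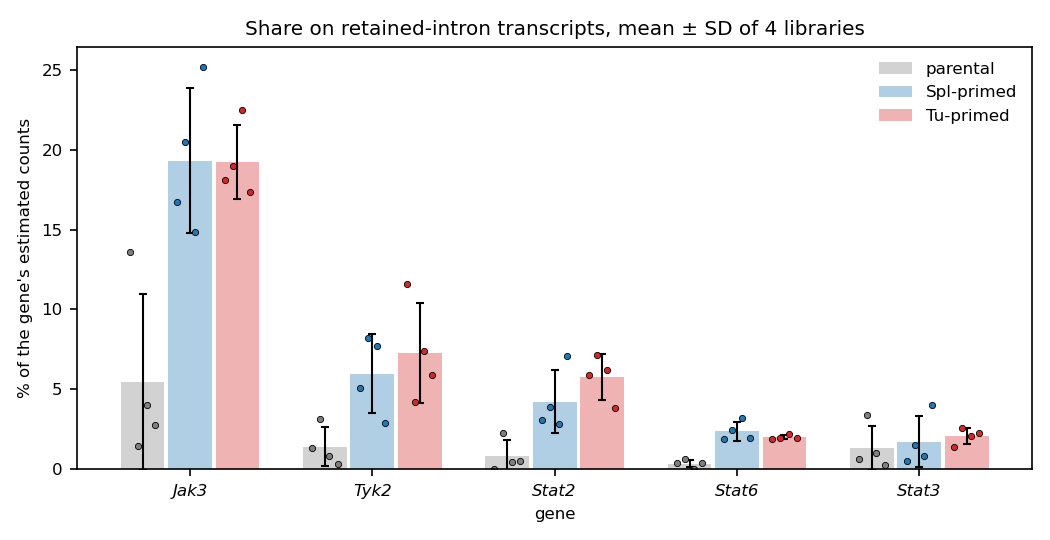
Percent of each gene's estimated counts on transcripts annotated as retained intron, by group, for the 5 genes of the 9 that have such transcripts, with points for libraries and bars with error bars for mean ± SD (n = 4, axis from 0). Jak3 has the highest share in each group, 19.2%, 19.3% and 5.45% in Tu-primed, Spl-primed and parental libraries.

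Edges of introns kept in Jak3-204 and Tyk2-202, the most used retained-intron transcripts of their genes, and in Stat6-204 are printed to show where the kept sequence begins and ends. These introns lie within the coding part of the gene, begin with GT and end with AG, and are given with 15 exon bases in capitals and 15 intron bases in lower case, read on the gene's strand. Not every kept intron had these ends. Intron 14 in Stat2-207 (12.5 to 44.3 reads in Tu-primed libraries), with its ends taken from Stat2-202, ended in CT just before exon bases CAG. Intron 6 in Stat3-211 (1 to 4 reads) began with GC.
Jak3 intron 6, 590 bases, start: TCCGGGGACCAGGAGgtgctggggctgggc
Jak3 intron 6, end: tcctttcttcctcagCTTTTCCAGACCTTC
Jak3 intron 8, 85 bases, start: CCATGGACCCATCACgttaggagctagttg
Jak3 intron 8, end: gctgtcttggcctagGTTAGACTTTGCCAT
Tyk2 intron 12, 95 bases, start: GATGAAATCACCCAGgtgagtgttctgtgg
Tyk2 intron 12, end: taccacttcttacagCTGTCCCACTTGGGC
Stat6 intron 21, 77 bases, start: CCCCCAAGGCACCTGgtgagtagcaacccg
Stat6 intron 21, end: ccctcctctttgcagGGTCAGTGAAGACAT
Transcript Jak3-204, which keeps introns 6 (chr8:71679845-71680434) and 8 (chr8:71680798-71680882), held 131 to 186 reads in Tu-primed, 45.6 to 121 in Spl-primed and 3.08 to 33.4 in parental libraries. Jak3-204 also ends beyond the main coding transcript, Jak3-202 (base 71690224 against 71688558). Its estimated reads thus do not rest on these introns alone. Tyk2-202, which keeps introns 11 and 12 (the latter at chr9:21115549-21115643), held 18.5 to 80.4, 20.2 to 72.8 and 0 to 11.7 reads. Stat6-204 keeps intron 21 (chr10:127659718-127659794) and held 31.4 to 55.1, 25.9 to 84.6 and 0 to 19.0 reads. Tested transcript by transcript over all genes, Stat6-205, the retained-intron form of *Stat6* with the higher mean reads in both primed groups, passed for Spl-primed against parental cells (adjusted p = 0.0396; 75.2 to 84.7 against 1.59 to 18.9 reads) and Tyk2-202 did not (adjusted p = 0.0512 for Tu-primed and 0.0915 for Spl-primed against parental cells). Stat6-205 held no intron of the main coding transcript, Stat6-201, whole, so none is printed for it.

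*Stat3* is known in a long form, alpha, and a short form, beta, which lacks the C-terminal transactivation domain because of an alternative splice acceptor. Transcript Stat3-203 encodes 770 residues, and Stat3-202 encodes 722 after leaving out 50 coding bases, the first of them at coding position 2145 (chr11:100889541-100889590, minus strand). The left-out bases are printed in capitals, with 20 coding bases of Stat3-203 on each side.
Stat3 coding sequence around the left-out bases: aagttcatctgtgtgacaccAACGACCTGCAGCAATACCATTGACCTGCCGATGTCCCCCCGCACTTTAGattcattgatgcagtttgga
Stat3-203 took 81.7 to 89.9% of the *Stat3* reads in each library. Stat3-202 took 1.27% ± 0.34 (SD, n = 4) of them in Tu-primed, 1.21% ± 0.65 in Spl-primed and 1.23% ± 0.60 in parental libraries, and the ranges overlapped. It held 8.73 to 64.6 reads per library. Stat3-202 is also longer than Stat3-203 (6042 against 4516 bases). Its estimated reads thus do not rest on the left-out bases alone, and the share of the short form was not measured by itself. Transcript usage of *Stat3* did not pass the test in any comparison (adjusted p = 1, 0.512 and 0.976). That test covered 6 transcripts together and did not single out Stat3-202. The transcripts of *Stat2* and *Jak2* that differ little in sequence traded reads between libraries (Stat2-201 took 0 to 93.2%), and their separate values are not interpreted.

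Receptor genes of the pathway were counted from lists grouped by function. These lists and those further below were drawn up with earlier results of these data known, so counts in them are descriptions. The counts are read against the shares of all genes given above, which between Tu-primed and Spl-primed cells were 4.66% higher and 2.96% lower. Of 13 receptors of the IL-6 and IL-10 families, 9 were tested, and 2 were higher and 0 lower in Tu-primed than in Spl-primed cells. *Osmr*, the oncostatin M receptor, had 73.1, 71.3, 83.8 and 50.6 CPM in Tu-primed and 13.8 to 19.3 CPM in Spl-primed libraries, a log2 fold change of 2.04 ± 0.13 (adjusted p = 2.27e-06), and it was 11.9 to 12.6 CPM in parental libraries. *Lepr*, the leptin receptor, was higher by 0.85 ± 0.19 (adjusted p = 0.0143), which was lost without Tu-primed replicate 2 (0.0555) or 3 (0.0607). Against parental cells 6 of 9 were higher and 1 lower in Tu-primed cells (31.2% and 28.0% of all genes). In Spl-primed cells 3 were higher and 1 lower (25.7% and 22.5% of all genes), the former near the share of all genes. *Il6ra*, the IL-6 receptor, was among those higher in both primed groups (0.59 in Tu-primed, adjusted p = 0.00232, and 0.58 ± 0.14 in Spl-primed cells, adjusted p = 0.00369). *Il6st*, which encodes gp130, was the lower one in both (-0.32 ± 0.09 and -0.33 ± 0.09, adjusted p = 0.00585 and 0.0068), and both calls were lost with library size alone and with transcript length offsets.

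Of 5 interferon receptor genes, 4 were tested, and 2 exceeded the parental level in each primed group with 0 below it, where 31.2% of all genes were higher in Tu-primed and 25.7% in Spl-primed cells. *Ifnar2*, a chain of the type I interferon receptor, was higher in Tu-primed than in Spl-primed cells (0.31 ± 0.06, adjusted p = 0.00585), and *Ifnar1*, its partner chain, was higher in Tu-primed and Spl-primed cells than in parental ones (0.57 ± 0.08 and 0.41 ± 0.08, adjusted p = 5.79e-05 and 0.00132). *Ifngr1*, a chain of the interferon gamma receptor, was higher in Spl-primed than in parental cells (0.20 ± 0.06, adjusted p = 0.0177), a call lost without Spl-primed replicate 2 or 3 or parental replicate 4. For the receptors that use the common gamma chain or bind IL-4 and IL-13, 4 of 9 were tested. *Il13ra1* (1.15 ± 0.12, adjusted p = 3.74e-05) and *Il4ra* (0.50 ± 0.06, adjusted p = 0.000133), which pair in the receptor upstream of STAT6, were higher in Tu-primed than in Spl-primed cells, although *Il4ra* was not called on protein-coding transcripts alone (adjusted p = 0.072). In Spl-primed cells *Il4ra* was below the parental level (-0.30 ± 0.06, adjusted p = 0.000934), which was lost with library size alone (adjusted p = 0.0845). *Il15ra*, the IL-15 receptor chain, was higher in Tu-primed and Spl-primed cells than in parental ones (0.82 ± 0.19 and 0.93 ± 0.19). Of 9 homodimeric and beta common receptors, 3 were tested, and *Csf2rb*, with 7 to 24 reads in Tu-primed and 3 to 6 in Spl-primed libraries, was higher (1.98 ± 0.45, adjusted p = 0.0146) in a call lost without Tu-primed replicate 1 or Spl-primed replicate 1. *Crlf2*, a receptor chain for TSLP, was lower in Tu-primed (-0.73 ± 0.22) and Spl-primed (-0.82 ± 0.22) cells than in parental ones.

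The 18 inhibitors of JAK-STAT signaling were all tested, and 3 were higher and 1 lower in Tu-primed than in Spl-primed cells. *Usp18*, which blocks JAK1 at the interferon receptor, had 22.9, 14.8, 9.40 and 2.12 CPM in Tu-primed libraries against 0.220 to 0.690 CPM in Spl-primed and 0.247 to 0.545 CPM in parental libraries. *Usp18* varied widely among the Tu-primed libraries, with replicate 4 the lowest, and its log2 fold change was 4.84 ± 0.62 against Spl-primed cells (adjusted p = 0.000229). *Socs3*, a feedback inhibitor at gp130 and a STAT3 target, had 46.0, 51.2, 54.9 and 38.0 CPM against 20.2 to 22.7 CPM in Spl-primed libraries (1.15 ± 0.10, adjusted p = 1.14e-05). *Sh2b3*, an adaptor that restrains JAK2, was the lower one (-0.44 ± 0.06, adjusted p = 0.000435), and it was higher in Spl-primed than in parental cells (0.45 ± 0.06, adjusted p = 6.25e-05). Against parental cells 7 of the 18 were higher and 3 lower in Tu-primed cells (31.2% and 28.0% of all genes), and 5 higher and 2 lower in Spl-primed cells (25.7% and 22.5%), so the shares called higher were near those of all genes. *Cish*, a STAT5 target and inhibitor, rose by 0.92 ± 0.15 in Spl-primed (adjusted p = 0.0003) and 1.11 ± 0.15 in Tu-primed cells (adjusted p = 3.7e-05), the former lost on protein-coding transcripts alone (adjusted p = 0.21) and the latter with transcript length offsets (adjusted p = 0.0684). The lower calls of *Ptpn1*, *Socs7* and *Ptpn11* (-0.24 to -0.22) were each lost with library size alone. Of 9 partners and coactivators of STATs, 2 were higher in Tu-primed than in Spl-primed cells, *Irf9* and *Nmi*, which binds STATs (0.86 ± 0.15, adjusted p = 0.00325), and 1 was lower, *Sh2b1* (-0.24 ± 0.06, adjusted p = 0.0304), in a call lost under 11 alternatives. Against parental cells 4 of the 9 partners were higher and 1 lower in Tu-primed cells (31.2% and 28.0% of all genes), and 3 higher and 1 lower in Spl-primed cells (25.7% and 22.5%). *Stam*, a signal adaptor, was among the higher ones in both primed groups (0.46 in Tu-primed and 0.48 ± 0.05 in Spl-primed cells). The lower one in both was *Ndufa13* (-0.72 ± 0.12 and -0.51 ± 0.12), a respiratory chain subunit that also binds STAT3.

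Genes known to be induced through STAT2 and IRF9 were higher in Tu-primed cells almost without exception. The list was drawn up with earlier results of these data known, so its counts describe the genes listed and are not an independent test. Of 23 genes, 22 were higher than in Spl-primed cells and 23 higher than in parental cells, where 4.66% and 31.2% of all genes were, with median log2 fold changes of 3.11 and 3.13 beside -0.01 and 0.02 for all genes tested. *Ifit2* was the exception (0.21, adjusted p = 0.17) and is named for that reason, after its values were seen. *Oas2*, a sensor of double-stranded RNA, had 13.1, 6.21, 5.80 and 1.18 CPM in Tu-primed and 0.0363 to 0.209 CPM in Spl-primed libraries, and *Ifi44* had 111, 62.2, 50.3 and 12.4 CPM against 1.09 to 1.41 CPM. The log2 fold changes were 5.93 ± 0.72 (adjusted p = 0.000154) and 5.57 ± 0.56 (adjusted p = 3.72e-05). Parental cells held 1 read of *Oas2* and 3 of *Mx2*, an antiviral GTPase, in all 4 libraries, against 730 and 420 in Tu-primed cells, ratios of 674 (95% exact interval 121 to 2.67e+04) and 129 (43.9 to 629) that cover counting error only.

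Spl-primed cells did not show this pattern. Their *Stat2* level was 1.59-fold that of parental cells, a call that limma-voom did not make (adjusted p = 0.0571). Whether the *Stat2* level bears on these genes was not tested. Of the 23 genes 0 were called higher (25.7% of all genes) and 1 lower (22.5%), *Oasl1* (-0.62 ± 0.24, adjusted p = 0.0466, lost under 14 alternatives), and the median log2 fold change was 0.13. At an unadjusted p under 0.05, 0 were higher, and DESeq2 called 1 of the 23 higher and limma-voom 0. The mean log2 CPM of the 23 genes was 4.52, 4.00, 3.71 and 2.49 in Tu-primed replicates 1 to 4. It was 0.61 to 1.08 in Spl-primed and 0.53 to 0.64 in parental libraries. *Stat2* (81.3, 62.6, 59.2 and 32.5 CPM), *Irf9* and the inhibitor gene *Usp18* fell in the same order over Tu-primed replicates 1 to 4. A shared order over these few libraries is a description, and what links these genes was not tested.

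Genes induced through STAT3 moved with less uniformity. Their list too was drawn up with earlier results of these data known, and its counts are descriptions. Of 23 genes, 21 were tested, and 10 were higher and 0 lower in Tu-primed than in Spl-primed cells (4.66% and 2.96% of all genes), with a median log2 fold change of 0.30. *Muc1*, a membrane mucin, had 7.06, 7.07, 8.77 and 3.40 CPM in Tu-primed and 0.439 to 0.872 CPM in Spl-primed libraries (3.2 ± 0.28, adjusted p = 1.44e-05), and *Saa3*, an acute-phase protein gene, was higher by 2.33 ± 0.23 (adjusted p = 3.72e-05). Against parental cells 11 were higher and 2 lower in Tu-primed cells (31.2% and 28.0% of all genes), with *Muc1* (3.69 ± 0.30) and *Steap4*, a metalloreductase gene (3.22 ± 0.18, adjusted p = 3.96e-08), at the top. The lower genes were *Ccnd1*, which encodes cyclin D1 (-0.36 ± 0.04, adjusted p = 1.7e-05), and *Bcl2l1*, a survival gene (-0.25 ± 0.06, adjusted p = 0.00361, lost with library size alone). In Spl-primed against parental cells 6 were higher (3 without Spl-primed replicate 3 or parental replicate 3) and 5 lower (1 with library size alone), near the 25.7% and 22.5% of all genes. They included *Steap4* (0.92 ± 0.18) and *Vegfa* (0.50 ± 0.08) above and *Cebpb* (-0.48 ± 0.11) and *Lcn2* (-0.38 ± 0.12) below, the last lost without parental replicate 4. In Tu-primed cells *Vegfa* (0.91) and *Lcn2* (0.71) were both above the parental level. The mean log2 CPM of the 21 genes was 5.45 to 5.68 in Tu-primed, lowest in replicate 4, 4.83 to 5.02 in Spl-primed and 4.79 to 4.93 in parental libraries.

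**Figure D4:**
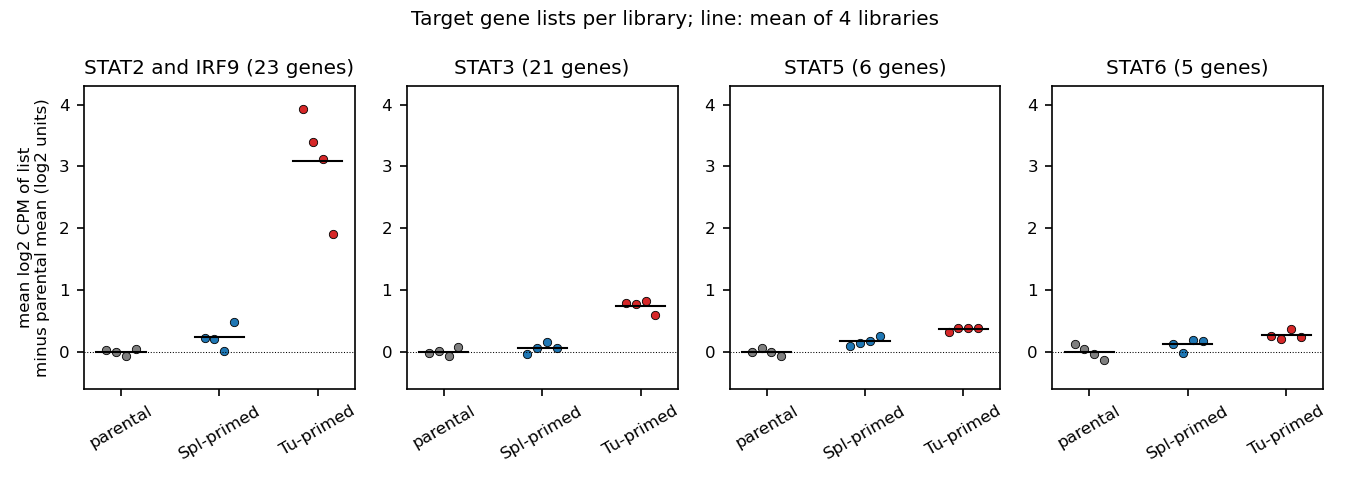
Mean log2 CPM of each STAT target list per library, as the difference from the parental mean (log2 units), with points for libraries and lines for the mean of 4. For STAT2 and IRF9 targets the Tu-primed libraries lie 1.90 to 3.93 above the parental mean and the Spl-primed ones 0.02 to 0.49, and for STAT3 targets 0.59 to 0.83 and -0.03 to 0.16.

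STAT5 and STAT6 target lists were small in these cells. Of 11 genes regulated through STAT5, 6 were tested, and the milk protein genes *Csn1s1*, *Csn2* and *Wap* had no read. In Tu-primed against Spl-primed cells 2 were higher, *Pim1*, a kinase gene that is also a STAT3 target (0.66 ± 0.09, adjusted p = 0.000289), and *Socs2* (0.53 ± 0.08, adjusted p = 0.000827). Against parental cells 3 of the 6 were higher and 1 lower in Tu-primed cells (31.2% and 28.0% of all genes), and 3 higher and 2 lower in Spl-primed cells (25.7% and 22.5%), with *Cish* leading in both and *Ccnd1* lower in both (in Spl-primed cells not with library size alone, adjusted p = 0.156). *Csn3*, a casein gene, was among the higher ones in Spl-primed cells (0.27 ± 0.08, adjusted p = 0.0146). Of the 2 lower genes in Spl-primed cells, *Bcl6* (-0.16 ± 0.06, adjusted p = 0.0319) turned positive with library size alone (0.01). Of 14 genes induced through STAT6, 5 were tested. *Il4ra* alone was higher in Tu-primed than in Spl-primed cells, while against parental cells *Mrc1*, the mannose receptor, was higher (0.94 ± 0.18 and 0.59 ± 0.18) and *Gata3*, which encodes a luminal transcription factor, lower (-0.39 ± 0.05 and -0.34 ± 0.05) in both primed groups. The *Mrc1* call in Spl-primed cells was lost without Spl-primed replicate 1 or 4 or parental replicate 4.

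For each of the 9 genes, the genes most like it over the 12 libraries were found by Pearson's r of log2 CPM among 12549 others, as a description over libraries that share 3 conditions. *Stat2* was closest to *Ifi202b* (r = 0.998) and *Mndal* (0.996), interferon-inducible genes of the Ifi200 family on chromosome 1. *Stat3* was closest to *Steap4* (0.994) and *Osmr* (0.993). *Jak3* was closest to *Tcp11l2* (0.986) and *Tle6* (0.985), *Jak1* to *Abl2* (0.984) and *Myh10* (0.982), *Jak2* to *Ptprk* (0.975) and *Map4k4* (0.962), and *Tyk2* to *Card10* (0.965) and *Dvl1* (0.960). *Stat5a* was closest to *Ggcx* (0.964) and *Ddit4* (0.962), *Stat6* to *Lrrc75a* (0.946) and *Flii* (0.943), and *Stat5b* to *Arhgap29* (0.921) and *Cbs* (0.915).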

How the data were processed

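RNA-Seq of 12 libraries (3 groups of 4) was analysed per transcript. Per the labels, libraries were made with a TruSeq Stranded RNA kit. The submitters' processing notes name FastQC, Trimmomatic 0.39, Salmon 1.4.0 and GRCm38 (mm10). The strand setting of Salmon is not given in the sources used here. The authors deposited Salmon estimated counts and TPM per transcript. Their deposited normalised table of the series was not used here. The labels give day 21 for the isolation of Gr1+ cells and the study's methods give a later day.

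Estimated counts were summed per gene (GENCODE vM21, 115942 of 117081 listed transcripts matched) and rounded. Genes passing filterByExpr were fitted with edgeR 4.0.16 (R 4.3.3) over all 12 libraries (TMM, quasi-likelihood F test, Benjamini-Hochberg over 12550 genes, adjusted p under 0.05). Transcript usage was tested with diffSpliceDGE over 8796 genes. SE is the log2 fold change over the root of F. Log2 CPM used a prior count of 2. Alternatives were DESeq2 1.42.0, limma 3.58.1 (voom), other scalings (RLE, upper quartile, library size alone), no filter or 10 counts in every library, transcript length offsets, protein-coding transcripts alone, an adjusted p under 0.01, a replicate block, the 8 libraries compared alone, and leaving out each library. The fits were tested on simulated counts. Libraries of a group differed beyond sampling noise (chi-square per degree of freedom at least 3.46), so none was counted as a duplicate. Lists of genes were counted with no set test.

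The 9 genes, the 10 gene lists and the markers were chosen with earlier results of these data known, so that counts in lists are descriptions. Genes named from a list are those with the largest log2 fold change called in each direction (2 per comparison), besides exceptions named as such. Total counts set the precision, and 3 reads in a library correspond to at most 0.126 CPM.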

Additional observations from a re-analysis of the deposited data

Results flagged for a closer look

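In groups of 4 libraries, a library was singled out when its gap to the nearest other, divided by the range of the group, exceeded the critical value of Dixon's test, which chance gives in about 1 of 20 groups. Of 42 groups of values tested (CPM and retained-intron shares), 2 were singled out. *Jak1* in Spl-primed replicate 3 had 154.8 CPM, and the other 3 Spl-primed libraries had 188.8 to 191.3. *Stat5b* in parental replicate 4 had 27.22 CPM, and the other 3 parental libraries had 28.01 to 28.15, a gap that is small beside the levels.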

How the results depend on the processing

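*Stat2*, *Stat3* and *Jak3* kept direction and call between Tu-primed and Spl-primed cells and between Tu-primed and parental cells under every alternative run. Of 540 alternative values of the 9 genes, 482 kept direction and side of the threshold, 25 lost the call, 16 gained one and 17 changed sign. Genes called higher for Spl-primed against parental cells were 3 at an adjusted p under 0.01, not 5, and 5 to 6 on leaving out a library. For Tu-primed against parental cells 5 to 7 were called higher on leaving out a library. Genes called lower for either primed group against parental cells were 0, not 1, with library size alone and with transcript length offsets, for Tu-primed also 0 at an adjusted p under 0.01 and 2 in DESeq2, and 1 to 2 on leaving out a library. For Tu-primed against Spl-primed cells 1 was called lower, not 0, in DESeq2, and 0 to 1 on leaving out a library. Genes called higher in that comparison were 3 to 4 on leaving out a library. Isoform usage called 0 genes, not 3, at 10 counts in every library in both comparisons with parental cells. That setting removed the retained-intron transcripts and also left *Stat6*, *Stat2* and *Jak1* untested, each with a single transcript. For Spl-primed against parental cells isoform usage called 1 in limma-voom and 1 to 4 on leaving out a library.

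Deviations from the group means correlated little between libraries of equal replicate number (-0.164 to 0.148). Such values cannot show whether equal numbers shared a culture, mouse or day, so pairing stays unknown. With the replicate block, 1 gene (*Tyk2*) was called lower between Tu-primed and Spl-primed cells, and *Stat5b* lost its call against parental cells (adjusted p = 0.0583).

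Values that changed sign had failed the test, except *Bcl6*. With library size alone and transcript length offsets, *Stat6* against parental cells was 0.078 and 0.022 in Tu-primed and 0.0904 and 0.107 in Spl-primed cells. *Jak2* in Spl-primed against parental cells was 0.0147 with upper-quartile normalization, 0.162 with library size alone, 0.0055 at 10 counts in every library, 0.034 on protein-coding transcripts and -0.0535 to 0.057 on leaving out a library. *Bcl6* was 0.0147 with library size alone. Between Tu-primed and Spl-primed cells, *Stat5b* was -0.028 with transcript length offsets, and leaving out a library gave -0.061 to 0.077 for *Stat5b*, -0.018 to 0.104 for *Stat5a* and -0.0275 to 0.051 for *Jak1*. The cause of these changes was not tested. Over all genes, library size alone called 5964 higher and 1758 lower for Tu-primed and 5372 and 1060 for Spl-primed against parental cells (3917 and 3514, 3223 and 2827 as reported). For Tu-primed against Spl-primed cells the calls were 352 and 146 with length offsets and 349 and 96 at an adjusted p under 0.01 (585 and 372 as reported), and lower calls ranged from 118 to 531 on leaving out a library. Isoform usage over all genes called 1545 and 1532 at 10 counts in every library against parental cells (2827 and 2725 as reported), and 16 in limma-voom, 13 at 10 counts and 15 with the replicate block between primed groups and 25 to 56 on leaving out a library (32 as reported). Depth limits the values of retained-intron forms, which held few reads in parental libraries.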
